A study of Mus musculus with 12 samples.

Results

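The subject of the following is the change from Day 3 (D3) to Day 4 (D4) in 3D cultures of mammary epithelial cells (MEC) that lack Blimp-1. It rests on 6 of the 12 Illumina mouse arrays of the study, 3 hybridised with D3 cKO RNA and 3 with D4 cKO RNA. The members were the probes that the detection p-values of the authors placed above the negative controls (p under 0.05) on at least 3 of these 6 arrays, 18638 of the 45281 probes, which represent 10180 named genes. Primary cells were collected in late pregnancy and grown on Matrigel. The cKO cells came from Prdm1 BEH/CA;ROSA26:CreERT2 females (Prdm1 D/D after deletion), in which the ROSA26 locus drives a tamoxifen-dependent Cre in all cell types, and the wild type (WT) strain was C57BL/6, at 8 to 10 weeks of age. WT and cKO cells alike were exposed to 4-hydroxytamoxifen (100 nM, 24 h) at the start, and were fed every 48 h. The WT donors are not described as carrying Cre, so that the loss of Blimp-1, the activity of Cre and the mouse line cannot be told apart. The study's methods describe independent 3D cultures of each genotype and triplicate RNA samples at each day. Which culture or animal each array came from is not said, and all p-values rest on the spread among these arrays.

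Blimp-1, encoded by Prdm1, is a zinc finger repressor of transcription that was first described as a silencer of the interferon-β gene and is known for directing the maturation of plasma cells, skin and gut epithelium. In a laminin-rich gel, mammary epithelial cells from pregnant mice first divide, then leave the cell cycle, polarise around a lumen as acini and begin to express milk genes under prolactin, insulin and glucocorticoid. The medium described in the study held insulin, hydrocortisone, epidermal growth factor and serum, and prolactin is not listed. Where D3 and D4 lie within this transition was not tested. The question here is which of the changes seen from D3 to D4 in WT cultures were also seen in cKO cultures, and which were small.

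The number of detected probes lay between 18087 and 18905 on the 12 arrays, and each array correlated with its fellow replicates at 0.985 to 0.992 on average. D3 cKO replicate 2 had the brightest raw signals (median 271 against 194 to 250 on the other 11 arrays). The luminal keratins Krt8 and Krt18 were bright on all 6 cKO arrays, at normalized signals of 27199 to 29402 and 17793 to 21132. Of 8 lymphocyte markers with a probe, 0 passed the filter in the cKO. Markers of other cell types did pass: 14 of 14 for fibroblasts, 9 of 10 for endothelium, 7 of 10 for myeloid cells and 1 of 9 for adipocytes. Arrays measure the RNA of all cells together, so fewer cells of a type and less RNA per cell cannot be told apart.

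In the cKO cultures 273 genes were higher at D4 than at D3 and 182 were lower, which is 2.68% and 1.79% of the 10180 genes tested (4.47% together). A call required at least a 1.5-fold change and an adjusted p no higher than 0.05 in a limma model of all 4 groups. The median change of the genes called was 0.87 on the log2 scale for those that rose and -0.76 for those that fell. At least a 2-fold change was reached by 94 of the former and 21 of the latter. The D4 and D3 arrays did not overlap in 273 of the 273 genes that rose and in 181 of the 182 that fell. Among all genes tested, the arrays did not overlap upwards in 13.8% and downwards in 15.2%. Leaving out D4 cKO replicate 2 lowered the counts to 97 and 64, and the model of the cKO arrays alone gave 72 and 20, or 310 and 180 with the replicate number as a block.

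WT cultures, analysed in the same model, gave 760 genes higher and 524 lower (7.09% and 4.89% of 10724, 12% together; the arrays did not overlap upwards in 20.2% and downwards in 21.4%). Of the 714 genes higher in WT that were tested in the cKO, 226 were called in the cKO too, 694 had a positive sign there, and the median change was 0.57 in cKO against 0.88 in WT. Of the 513 lower in WT, 117 were called, 493 had a negative sign, and the medians were -0.46 and -0.77. Choosing genes by their WT change raises the WT side of this comparison. Seen from the other side, the 273 genes that rose in the cKO had a median of 0.87 there and 1.00 in WT, and the 182 that fell had -0.76 and -0.73. No gene was called in opposite directions. Across the 10180 genes the changes of both genotypes correlated with r = 0.75, a description over genes that share arrays and normalization and are not independent replicates.

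**Figure D1:**
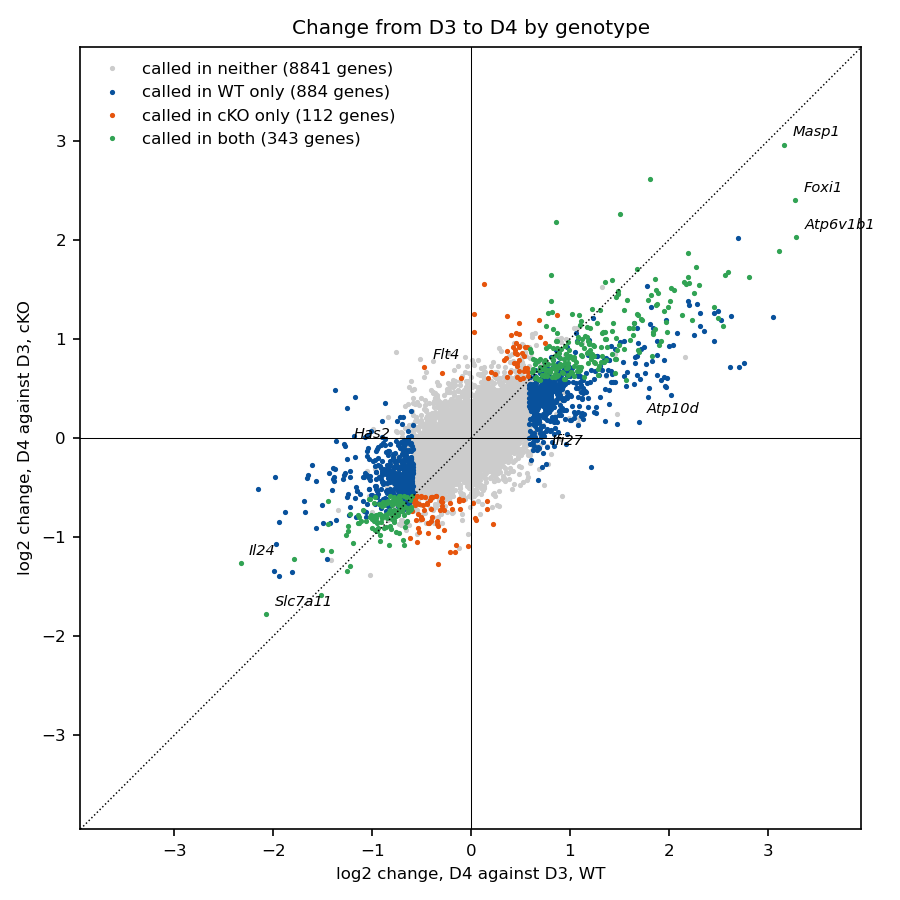
Each point is 1 of the 10180 genes tested in the cKO, with the log2 change from D3 to D4 in WT on the x axis and in cKO on the y axis, both from 3 arrays a day, and the dotted line marks equal change. The 343 genes called in both genotypes lie in the upper right and lower left quadrants, 884 were called in WT only and 112 in cKO only.

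The test of the difference between the changes of both genotypes called 0 of 10724 genes in limma. The lowest adjusted p was 0.111, and 793 genes had an unadjusted p under 0.05. The median standard error of the difference was 0.20 on the log2 scale, so a gene with an ordinary spread needed a large difference to pass. With the replicate number as a random block 8 genes passed, with trended and robust variances 6, and without background correction 4. An ordinary t-test, not the array test of the study, gave 0 after adjustment and 823 before. A gene called in WT and not in the cKO is therefore not shown to differ between the genotypes unless its own test is given.

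The largest increase in the cKO was that of Masp1, a serine protease of the lectin pathway of complement. Its normalized signal was 205, 265 and 131 on the D3 cKO arrays 1 to 3 and 983, 2031 and 1688 on the D4 cKO arrays. All D4 arrays lay far above all D3 arrays, a 7.80-fold rise (log2 change 2.96 ± 0.33 SE, adjusted p = 0.0031), and WT cultures gave 3.17 ± 0.33. Foxi1, the transcription factor of proton-secreting cells in kidney and inner ear, gave 218, 330 and 129 at D3 and 709, 1262 and 1544 at D4. The groups did not overlap, and the rise was 5.29-fold in cKO (log2 change 2.40 ± 0.41 SE, adjusted p = 0.011) and 9.70-fold in WT. A pair of further Foxi1 probes rose by 2.77 and 2.18 on the log2 scale in the cKO. Atp6v1b1, a proton pump subunit of the same cells, was detected on 0 of 3 D3 and on 3 of 3 D4 arrays (43, 36 and 31 against 76, 210 and 202). Its rise was at least 1.97-fold in cKO (adjusted p = 0.015) and at least 5.36-fold in WT. Such lower bounds replace the signals of the undetected group by the dimmest signal that counted as detected on each of its arrays. A second Atp6v1b1 probe gave 0.06 ± 0.33 in the cKO. The difference between genotypes gave an adjusted p of 0.77 for Foxi1 and 0.64 for Atp6v1b1.

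Ifi27l2a, an interferon-induced mitochondrial protein, gave 260, 470 and 223 at D3 and 1759, 2049 and 1753 at D4. The D4 arrays lay close together and above all D3 arrays, a 6.14-fold rise (log2 change 2.62 ± 0.31 SE, adjusted p = 0.0031). Acta1, skeletal muscle actin, was detected on no D3 cKO array (45, 50 and 50) and on all D4 cKO arrays (288, 335 and 127), at least 3.07-fold higher (adjusted p = 0.016). Pgf, a growth factor of the VEGF family, rose 3.19-fold from 420, 492 and 211 to 1313, 1263 and 852 (adjusted p = 0.021). Vsir, an immune checkpoint ligand also called VISTA, rose 3.30-fold (adjusted p = 0.010) and C2cd4a, an inflammation-induced nuclear protein, 3.27-fold (adjusted p = 0.0077). WT changes of these genes were 6.04-fold for Pgf, 4.86-fold for Vsir and 3.21-fold for C2cd4a. Ppargc1a, the coactivator of mitochondrial biogenesis, rose by 1.46 ± 0.20 in cKO and 1.49 ± 0.20 in WT on the log2 scale, and Srebf1, a lipogenic transcription factor, rose by 0.98 ± 0.17 and 0.87 ± 0.17.

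**Figure D2:**
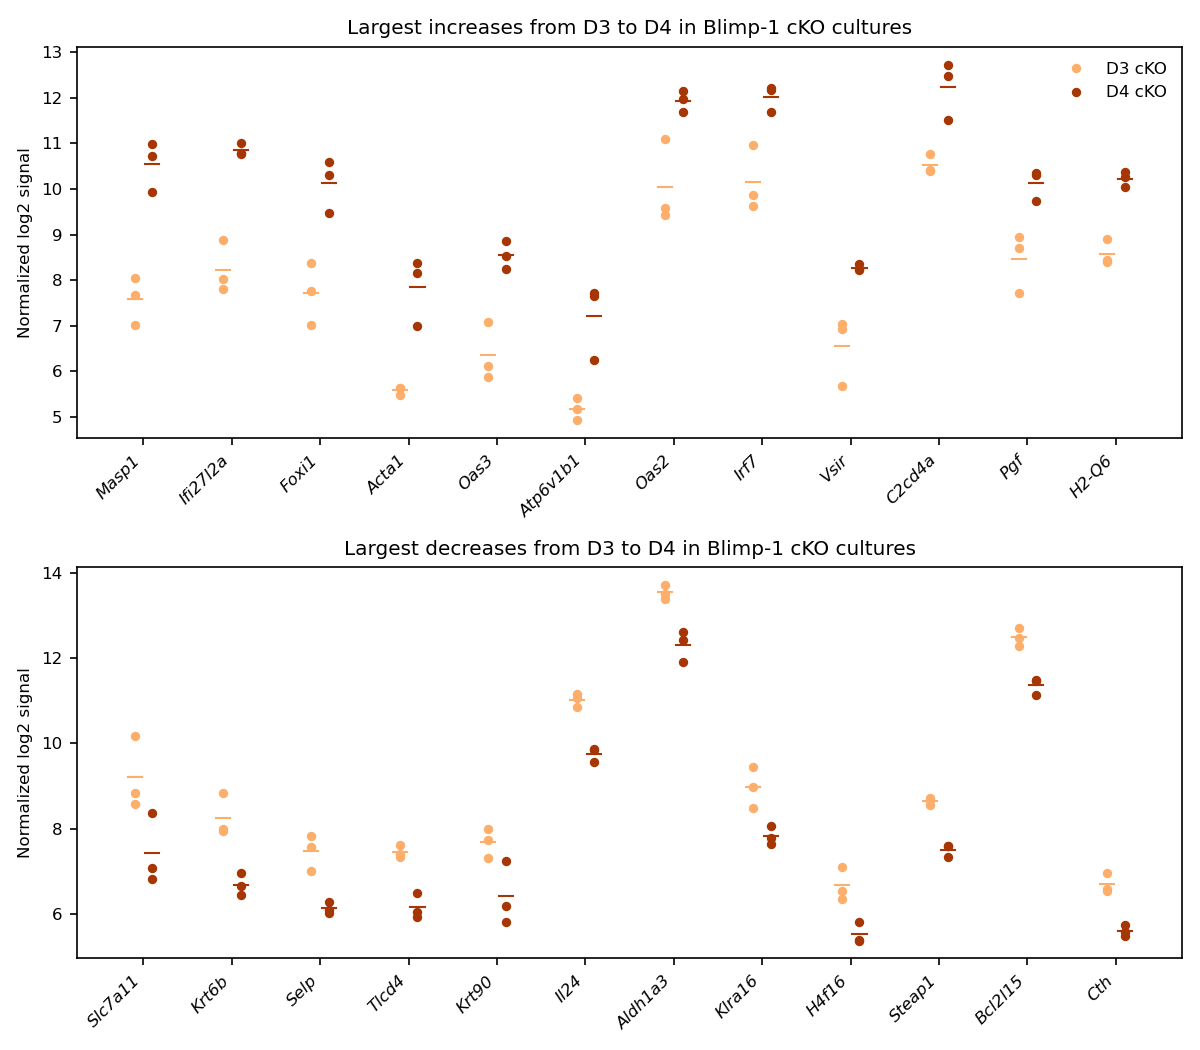
Normalized log2 signal of the 12 largest increases and the 12 largest decreases from D3 to D4 in the cKO among called genes whose arrays did not overlap, with a point for each array and a bar at the mean of 3 arrays. Every D4 cKO point of the upper panel lies above the D3 cKO points of that gene, and the reverse holds in the lower panel.

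Among the decreases, Aldh1a3, a retinaldehyde dehydrogenase of luminal progenitors, was the brightest gene. It gave 13533, 10866 and 11770 at D3 and 6319, 5492 and 3896 at D4. No arrays overlapped, and the fall was 2.34-fold in cKO (log2 change -1.23 ± 0.18 SE, adjusted p = 0.0075) and 3.46-fold in WT (difference adjusted p = 0.66). A second Aldh1a3 probe gave -0.46 ± 0.36 in the cKO. Il24, a cytokine of the IL-10 family, gave 2292, 1851 and 2139 at D3 and 920, 757 and 940 at D4, a 2.40-fold fall (adjusted p = 0.010), against 5.02-fold in WT (difference adjusted p = 0.43). Steap1, a metalloreductase, fell 2.21-fold (adjusted p = 0.0079) and Bcl2l15, a member of the Bcl-2 family, 2.18-fold (adjusted p = 0.027), with WT falls of 2.67-fold and 2.85-fold. Selp and Tlcd4 were dim genes that fell 2.54-fold and 2.45-fold (adjusted p = 0.0093 and 0.0031). Slc7a11, the cystine transporter, had the largest fall, -1.78 ± 0.47 (adjusted p = 0.047), with D3 signals of 459, 384 and 1154 and D4 signals of 134, 113 and 330. Its D3 cKO replicate 3 stood above the rest, the call ended in 13 of 22 alternatives, and a second probe gave -0.58 ± 0.26.

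Genes of DNA replication fell together in the cKO. Of 28 genes tested for the G1 to S transition and DNA replication, 14 fell, 0 rose and 28 had a negative sign, with a median change of -0.66 on the log2 scale against -0.01 over all genes tested. In WT 19 of the 28 fell, with a median of -0.70. Of all genes tested, 1.79% fell in the cKO and 4.89% in WT. The same-numbered pairs of cKO arrays gave medians of -0.51, -0.58 and -0.76. Mcm5, a subunit of the replicative helicase, gave 10193, 9326 and 9720 at D3 and 6608, 5473 and 5684 at D4. It fell 1.65-fold in cKO (log2 change -0.72 ± 0.11 SE, adjusted p = 0.0077) and 1.76-fold in WT. Cdc6, which loads that helicase onto origins, gave 625, 654 and 592 at D3 and 382, 381 and 253 at D4 and fell 1.87-fold (adjusted p = 0.022). Ccne2, a cyclin of the G1 to S transition, fell 2.11-fold (adjusted p = 0.0077), Mcm3 1.81-fold (adjusted p = 0.0077) and Rrm2, a subunit of ribonucleotide reductase, 1.78-fold (adjusted p = 0.015). The count of replication genes lay between 6 (without D3 cKO replicate 1) and 17 (without D4 cKO replicate 1).

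The share of all genes that fell was 1.79% in the cKO and 4.89% in WT. Of 24 genes of the G2 phase and mitosis, 7 fell in the cKO and 14 in WT, with medians of -0.55 and -0.74. They included the mitotic kinase Aurka (4702, 5186 and 3891 at D3 against 3382, 2897 and 1878 at D4, adjusted p = 0.042), Ndc80 of the kinetochore and Ube2c of the anaphase-promoting complex. These 7 calls were fragile: 0 of the 24 were called with the authors' processed values (median -0.52), and 0 without D3 cKO replicate 1 or 3 or D4 cKO replicate 2 or 3, against 13 without D4 cKO replicate 1. Genes of ribosome biogenesis gave 3 falls of 19 in the cKO (Rrp12, Ddx21 and Ncl) and 4 in WT, with medians of -0.35 and -0.40. The cKO count was 2 without D3 cKO replicate 2, 0 without D4 cKO replicate 3 and 1 without any other cKO array, and a second Ddx21 probe gave -0.25 ± 0.16. Ribosomal protein genes gave 0 calls of 15 in either genotype, while 4.47% of all genes were called in the cKO and 12% in WT. The transferrin receptor Tfrc fell by 0.62 ± 0.12 in cKO and by 0.71 ± 0.12 in WT on the log2 scale.

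E2F factors switch on replication genes in dividing cells through a short element, and it was looked for in the promoters of these genes, taken as 250 bases before to 50 after the start (RefSeq, GRCm38.p6). The letters TTTNNCGC, on either strand, occur in 10 of the 22 replication genes tested that have a promoter in the table (45.5%) and in 6 of 11 that fell in the cKO, against 5.93% of all 27025 promoters and 828 of the 8242 promoters of genes tested. The 4 windows below are those of the replication genes with the largest falls that have the letters before the start, with the match in capitals. Within the list the share was 54.5% in the genes that fell, close to the 45.5% of the whole list. Whether the letters bear on the falls was not tested, and a match is a description, not a site in use.
Cdc6, chr11:98908002-98908031, + strand: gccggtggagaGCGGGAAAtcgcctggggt
Mcm5, chr8:75109349-75109378, + strand: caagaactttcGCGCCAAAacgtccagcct
Mcm6, chr1:128359734-128359763, - strand: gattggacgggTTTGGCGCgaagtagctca
Uhrf1, chr17:56303270-56303299, + strand: gccccacttgcTTTCTCGCttcccgccaca
Mcm6, a further helicase subunit, fell by 0.66 on the log2 scale and Uhrf1, which keeps DNA methylation through replication, by 0.66.

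Genes of antigen presentation rose from D3 to D4 in the cKO. Of 20 genes of MHC class I and peptide loading, 10 rose in the cKO and 9 in WT, with medians of 0.71 and 0.44. Over all genes tested, 2.68% rose in the cKO and 7.09% in WT. The study reported on MHC class I and interferon genes from these arrays, so their counts here are not independent evidence. H2-K1, a classical class I heavy chain, gave 2593, 2672 and 2923 at D3 and 4806, 4984 and 5757 at D4. The groups were well apart and the rise was 1.90-fold (log2 change 0.92 ± 0.11 SE, adjusted p = 0.0033), against 1.46-fold in WT (difference adjusted p = 0.64). A pair of further H2-K1 probes gave 0.91 ± 0.23 (adjusted p = 0.042) and 0.78 ± 0.29 (adjusted p = 0.13) in the cKO. H2-Q6, a non-classical heavy chain, gave 349, 477 and 338 at D3 and 1224, 1062 and 1332 at D4, a 3.14-fold rise (adjusted p = 0.0031) against 1.76-fold in WT (difference adjusted p = 0.50). H2-D1 was the brightest, at 13714 to 16994 at D3 and 23604 to 24646 at D4. Psmb8 and Psmb9, subunits of the immunoproteasome, rose by 0.72 ± 0.16 and 1.02 ± 0.19, and Tap2 of the peptide transporter by 0.71 ± 0.19, a call that ended in 13 of 22 alternatives. The H2 genes are close paralogs whose probes may share transcripts. The count was lowest, 6, without D4 cKO replicate 3 and highest, 11, without D3 cKO replicate 2.

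Interferon-stimulated genes rose in both genotypes, from different starting levels. Of 51 tested, 15 rose in the cKO, 0 fell and 50 had a positive sign, with a median of 0.53. In WT 35 rose, with a median of 0.92. The share of all genes that rose was 2.68% in the cKO and 7.09% in WT. Oas2, a sensor of double-stranded RNA, gave 770, 2199 and 685 on the D3 cKO arrays and 3308, 4512 and 3989 on the D4 cKO arrays. It rose 3.72-fold in the cKO (adjusted p = 0.015). On the WT arrays it gave 65, 83 and 67 at D3 and 709, 611 and 541 at D4, so that the D4 WT level was of the order of the lower D3 cKO arrays. Irf7, the amplifier of interferon induction, gave 796, 2002 and 929 at D3 and 3311, 4765 and 4587 at D4 in the cKO, a 3.66-fold rise (adjusted p = 0.0079) against 4.59-fold in WT. Oas3, detected on 1 of 3 D3 and 3 of 3 D4 cKO arrays (59, 136 and 70 against 303, 369 and 464) and on no WT array, rose with an adjusted p of 0.0033. Its log2 change lay between 1.08 and 2.52 over the alternatives. Trim30a, a modulator of innate signalling, rose 2.99-fold (adjusted p = 0.019), and Stat2 and Dhx58, an RNA helicase, by 0.82 ± 0.19 and 0.94 ± 0.21 on the log2 scale.

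Other members were already bright at D3 in the cKO, and their changes were not called. Isg15, a ubiquitin-like modifier, gave 15293, 23475 and 12294 at D3 and 24452, 22412 and 24254 at D4 in the cKO. The D3 and D4 arrays overlapped (log2 change 0.53 ± 0.22, adjusted p = 0.18), while in WT it rose 3.89-fold from between 1633 and 2628 to between 7368 and 9168. Usp18, which removes Isg15 and dampens interferon signalling, gave 0.43 ± 0.23 in cKO and 2.03 ± 0.23 in WT (difference adjusted p = 0.34). A second Usp18 probe gave 0.82 ± 0.25 in the cKO (adjusted p = 0.077). Over the alternatives the cKO change lay between 0.32 and 0.82 for Isg15 and between 0.20 and 0.80 for Usp18, with adjusted p down to 0.046 and 0.0062. Rtp4 and the GTPase Irgm2 gave 0.52 and 0.51 in the cKO, not called, and rose by 1.97 and 1.80 in WT. Ifi27 gave -0.15 ± 0.10 in the cKO and rose by 0.73 ± 0.10 in WT. Its difference had an adjusted p of 0.11, and passed with trended and robust variances (0.0024), without background correction (0.015) and with the random block (0.040).

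D3 cKO replicate 2 was the highest D3 cKO array in these genes. Averaged over the 51 genes, its level was 0.97 above the 12-array mean on the log2 scale, against 0.22 and 0.21 on D3 cKO replicates 1 and 3 and 1.06 to 1.16 on the D4 cKO arrays. The median change by same-numbered pair was 0.69, 0.08 and 0.83. Without that array 29 of 50 genes rose in the cKO, with a median of 0.79. Leaving out another cKO array gave fewer, 4 without D3 cKO replicate 1, 6 without D3 cKO replicate 3, and 12, 4 and 5 without D4 cKO replicates 1, 2 and 3. Its part in the smaller count of the cKO was not tested.

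**Figure D3:**
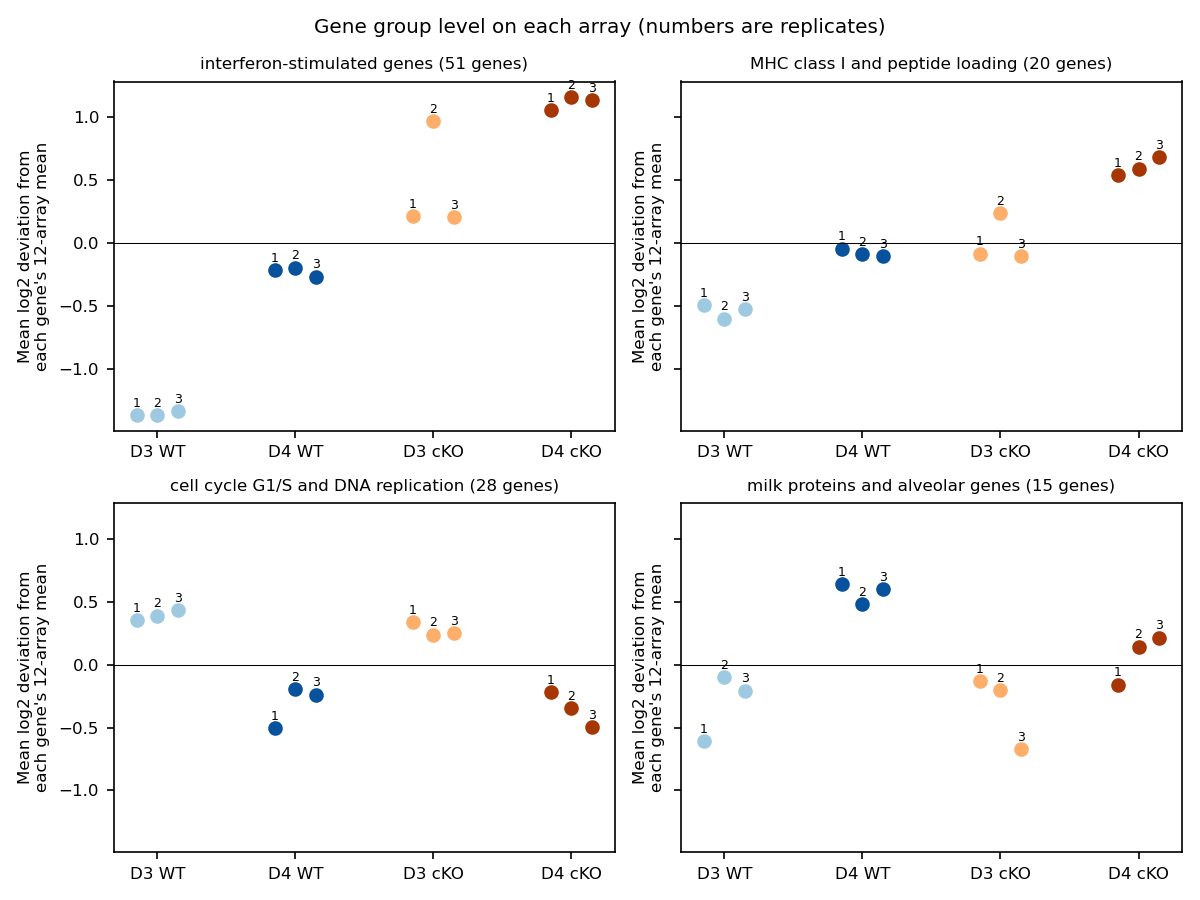
Level of 4 gene groups on each of the 12 arrays, as the mean over the genes of the log2 deviation from the 12-array mean of the gene, with replicate numbers beside the points. D3 cKO replicate 2 stands at 0.97 in interferon-stimulated genes, near the D4 cKO arrays at 1.06 to 1.16, and the replication genes fall from D3 to D4 in both genotypes.

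A pair of GAAA blocks with 2 bases between them, on either strand, is the core of the element through which interferon factors act and to which Blimp-1 can bind. It occurs in 18 of the 39 interferon-stimulated genes tested that have a promoter in the table (46.2%) and in 6 of 12 that rose in the cKO, against 3.99% of all promoters and 304 of the 8242 of genes tested. The windows below are those of the listed genes that rose most among those with a match before the start, with the match in capitals.
Oas3, chr5:120777715-120777744, - strand: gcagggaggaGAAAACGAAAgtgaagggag
Trim30a, chr7:104465210-104465239, - strand: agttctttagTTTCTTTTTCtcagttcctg
Oas1g, chr5:120887614-120887643, - strand: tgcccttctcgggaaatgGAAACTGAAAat
Ifit3, chr19:34583397-34583426, + strand: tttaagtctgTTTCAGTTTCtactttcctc
Oas1g, a further member of the Oas family whose paralogs are close in sequence, rose by 1.24 and Ifit3, an antiviral protein that binds viral RNA, by 1.11 on the log2 scale, a call that ended in 13 of 22 alternatives. No match in a window says only that the letters are not within it.

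Some members of smaller groups also rose in the cKO, where 2.68% of all genes tested rose, against 7.09% in WT. Of 9 complement genes, C2 (2.99-fold, adjusted p = 0.013) and Serping1, the C1 inhibitor (2.61-fold, adjusted p = 0.015), rose in the cKO, and 3 rose in WT. The cKO count was 0 without D4 cKO replicate 2 and 1 without D3 cKO replicate 1 or D4 cKO replicate 3. Lbp, which carries bacterial lipopolysaccharide, rose 2.82-fold, from 1824, 2007 and 1982 to 4017, 5747 and 7051 (adjusted p = 0.0031), against 4.15-fold in WT. Of 25 genes of glycolysis and the hypoxia response, 4 rose in the cKO and 8 in WT, with medians of 0.45 and 0.48. The count fell to 1 without D3 cKO replicate 2 or 3 or D4 cKO replicate 2, and the median to 0.20 without D3 cKO replicate 3. The 4 were the oxygen sensor Egln3 (1.07 ± 0.22), the glycolytic Aldoc (1.04 ± 0.12), the carbonic anhydrase Car9 (0.68 ± 0.16) and Pdk1, which holds back pyruvate oxidation (0.63 ± 0.17, a call that ended in 16 of 22 alternatives). Aldoc went from 2401, 3278 and 2984 to 5811, 6083 and 5831. Of 17 Wnt and Notch genes, Hey1, a target of Notch, rose 2.94-fold (2866, 4125 and 2788 against 6408, 10670 and 12269, adjusted p = 0.010) and the receptor Notch3 1.89-fold (adjusted p = 0.036), and 4 rose in WT. Among 20 lysosome genes Hexa rose by 0.84 ± 0.12 and Npc2 by 0.70 ± 0.17, the latter not called with the replicate block (adjusted p = 0.053), with medians of 0.31 in cKO and 0.28 in WT.

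Of 30 collagen and matrix genes, Col6a1 and Col16a1 rose in both genotypes and no others were called in either. This is 6.67%, against 2.68% of all genes in the cKO and 7.09% in WT. However, 0 were called in the cKO whichever cKO array was left out. Col6a1 gave 1355, 1182 and 728 at D3 and 2670, 2338 and 2090 at D4 in the cKO (log2 change 1.16 ± 0.31, adjusted p = 0.050), a call that ended in 14 of 22 alternatives. The 14 fibroblast markers gave 0 calls in the cKO with a median of 0.34, and their summed signal was 15964 to 20110 at D3 and 20198 to 24280 at D4 on the cKO arrays. The part of fibroblasts in the matrix values was not tested.

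Milk and alveolar genes were examined as the products of the mature acinus. Of 27 with a probe, 15 were tested in the cKO, and 1 rose (2.68% of all genes did), with a median of 0.38. In WT 9 of 19 rose (7.09% of all genes did), and the 15 genes had a median of 0.72. The same-numbered cKO pairs gave medians of -0.01, 0.16 and 0.57, and the median was 0.19 without D4 cKO replicate 3. In 15 of the 15 the size of the change was smaller in the cKO than in WT. Changes in the cKO were smaller in general, with a median size of 0.18 against 0.23 in WT over the 10180 genes. The change was smaller in 44 of 51 interferon-stimulated genes and in 4 of 15 ribosomal protein genes. Trf, the iron carrier secreted into milk, was the gene that rose: 13574, 13950 and 7590 at D3 and 19832, 24181 and 19113 at D4 (log2 change 0.89 ± 0.22, adjusted p = 0.037), against 1.48 ± 0.22 in WT. Its call ended in 11 of 22 alternatives. Pip, a secreted glycoprotein of milk and saliva, was detected on 0 of 3 D3 and 2 of 3 D4 cKO arrays and therefore fell short of the filter. Its signals were 40, 41 and 37 at D3 and 67, 123 and 88 at D4, while in WT they went from 37, 67 and 41 to 757, 440 and 719, at least 8.21-fold higher. The difference between genotypes had an adjusted p of 0.11, and of 0.020 with trended and robust variances. Cel, the bile salt-activated lipase of milk, gave 90, 59 and 38 at D3 and 65, 176 and 170 at D4 in the cKO, which overlap, and rose at least 3.34-fold in WT. Csn2, β-casein, spread too widely at D3 to be called in either genotype (9409, 6336 and 606 against 4029, 7081 and 6893 in cKO, and 978, 8826 and 4506 against 14738, 15086 and 15842 in WT). Elf5 and Stat5a, transcription factors of the alveolar programme from the list of prolactin and STAT5 targets (0 of 11 called in the cKO, 2 of 14 in WT), gave 0.40 ± 0.15 and 0.38 ± 0.26 in the cKO, not called, and rose by 0.80 ± 0.15 and 0.82 ± 0.26 in WT (difference adjusted p = 0.71 and 0.83).

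Of 19 glucocorticoid receptor targets 0 were called in the cKO and 5 rose in WT, with medians of 0.11 and 0.50. Among all genes tested 2.68% rose in the cKO and 7.09% in WT, so 0 of 19 in the cKO lies near the share of all genes. Fkbp5, a chaperone of that receptor, gave 1844, 2032 and 1675 at D3 and 1992, 2456 and 2714 at D4 in the cKO (adjusted p = 0.17) and rose 1.81-fold in WT (difference adjusted p = 0.64). Tsc22d3, the glucocorticoid-induced leucine zipper, lay just short of the threshold, at 1181, 1397 and 1486 at D3 and 2081, 2094 and 2929 at D4 with no overlap (log2 change 0.79 ± 0.21, adjusted p = 0.050, and 0.92 ± 0.26 with a second probe). Sult1a1, a sulfotransferase, gave 1.20 ± 0.34 in the cKO (adjusted p = 0.058) and 2.53 ± 0.34 in WT. Without background correction 3 of the 19 were called in the cKO.

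Of 23 immediate early genes, which respond within minutes to growth factors and stress, 2 rose in the cKO and 9 in WT, where 1 fell. Egr1 (11294, 11923 and 12339 against 19273, 19113 and 16878 in the cKO) rose 1.55-fold and Zfp36, which destabilises cytokine mRNA, by 0.65 ± 0.14, close to their WT changes of 1.65-fold and 0.85 ± 0.14. Jun gave 1079, 993 and 1568 at D3 and 1311, 1245 and 2451 at D4 in the cKO, which overlap, and rose 3.46-fold in WT (difference adjusted p = 0.58). Over all genes tested, 2.68% rose and 1.79% fell in the cKO, against 7.09% and 4.89% in WT. Of 17 cholesterol synthesis genes 0 were called in the cKO, near that share, and 5 fell in WT. In the cKO 17 had a negative sign, and the medians were -0.37 and -0.45. Of 20 matrix proteases and inhibitors, Plaur, the urokinase receptor, fell in the cKO (-0.72 ± 0.16) and 7 fell in WT, with medians of -0.02 and -0.29. The cKO median turned to 0.15 with the authors' processed values. Of 13 squamous genes tested, Krt6b (456, 246 and 254 against 86, 123 and 100) and Lor fell in the cKO, against 6 of 16 in WT. The cKO count was 0 with the authors' processed values, 1 without D3 cKO replicate 2 and 0 without any other cKO array.

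**Figure D4:**
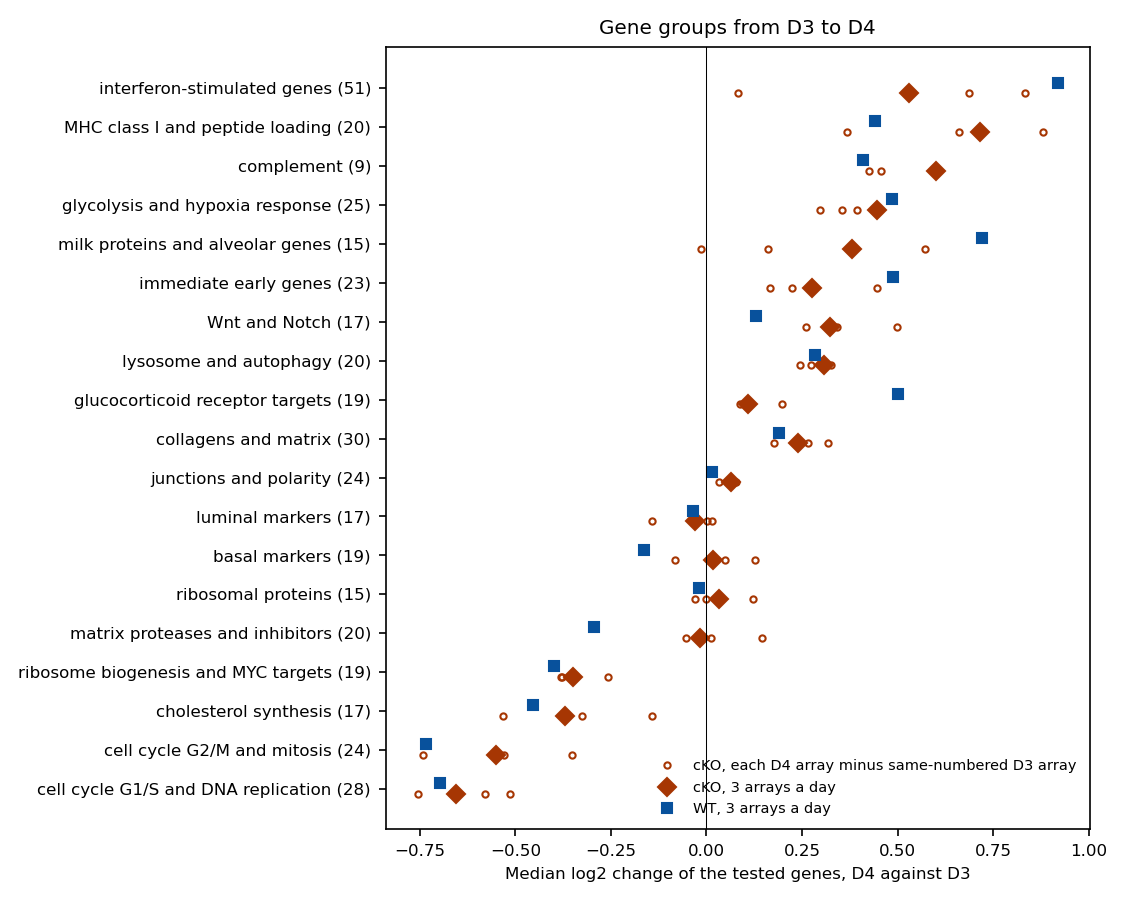
Median log2 change from D3 to D4 over the tested genes of 19 groups (WT squares over the genes tested on all 12 arrays together), with the number tested in the cKO in parentheses, as diamonds for cKO, squares for WT and open circles for the same-numbered pairs of cKO arrays. The cell cycle groups lie at -0.66 and -0.55 in cKO and -0.70 and -0.74 in WT, and the glucocorticoid targets at 0.11 in cKO and 0.50 in WT.

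Single genes can be placed more firmly by the 95% interval of their change in the cKO. Of the 714 genes that rose in WT and were tested in the cKO, 79 (11.1%) had an interval wholly inside a 1.5-fold change either way, and of the 513 that fell in WT, 92 (17.9%), against 58.4% of all genes tested. The genes named here were chosen after their values were seen, as those with the largest WT changes among them. Has2, the enzyme that makes hyaluronan, gave 4653, 4806 and 4797 at D3 and 4990, 3941 and 4575 at D4 in the cKO, and 4452, 4031 and 3727 against 1786, 1604 and 1658 in WT. The cKO stayed at the D3 level of WT, with a change of -0.08 (95% interval -0.33 to 0.16) against -1.27 ± 0.11 SE in WT. The difference had an adjusted p of 0.11 and passed with trended and robust variances (0.0021), without background correction (0.0072) and with the random block (0.032). Lif, a cytokine that acts through Stat3, gave 0.02 (95% interval -0.40 to 0.43) and fell 2.28-fold in WT. Dhcr7, the last enzyme of cholesterol synthesis, gave -0.13 (95% interval -0.45 to 0.18) and fell 2.07-fold in WT, from between 1271 and 1488 to between 592 and 792, with the cKO between 722 and 969 on both days. Prss22, a tryptase, gave 0.03 against -1.04 in WT (difference adjusted p = 0.21), Il34, a ligand of the Csf1 receptor, -0.18 against -1.05, and Mab21l4 -0.06 against -1.29.

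Atp10d, a lipid flippase, gave 818, 664 and 662 at D3 and 808, 799 and 787 at D4 in the cKO, so that it lay at both days at or above the D4 level of WT (654, 465 and 558, from 206, 175 and 138 at D3). Its change was 0.17 (95% interval -0.19 to 0.53) against 1.70 ± 0.16 SE in WT. The difference had an adjusted p of 0.11, and passed with trended and robust variances (0.020) and with the random block (0.040). Zkscan14, a zinc finger protein, gave 0.31 against 1.19, and a second probe -0.11 against 0.71. Sptb, a spectrin of the membrane skeleton, gave -0.06 against 0.96 with its brightest probe, but a second probe rose by 1.33 ± 0.26 in the cKO (adjusted p = 0.019) and by 1.92 in WT. Slc46a3, a lysosomal transporter, gave 0.18 against 1.01. Of the 79 such genes that rose in WT, 22 lay nearer to the D4 WT mean than to the D3 WT mean on both days of the cKO, and 42 nearer to the D3 WT mean on both. Of the 92 that fell in WT, the numbers were 12 and 51.

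**Figure D5:**
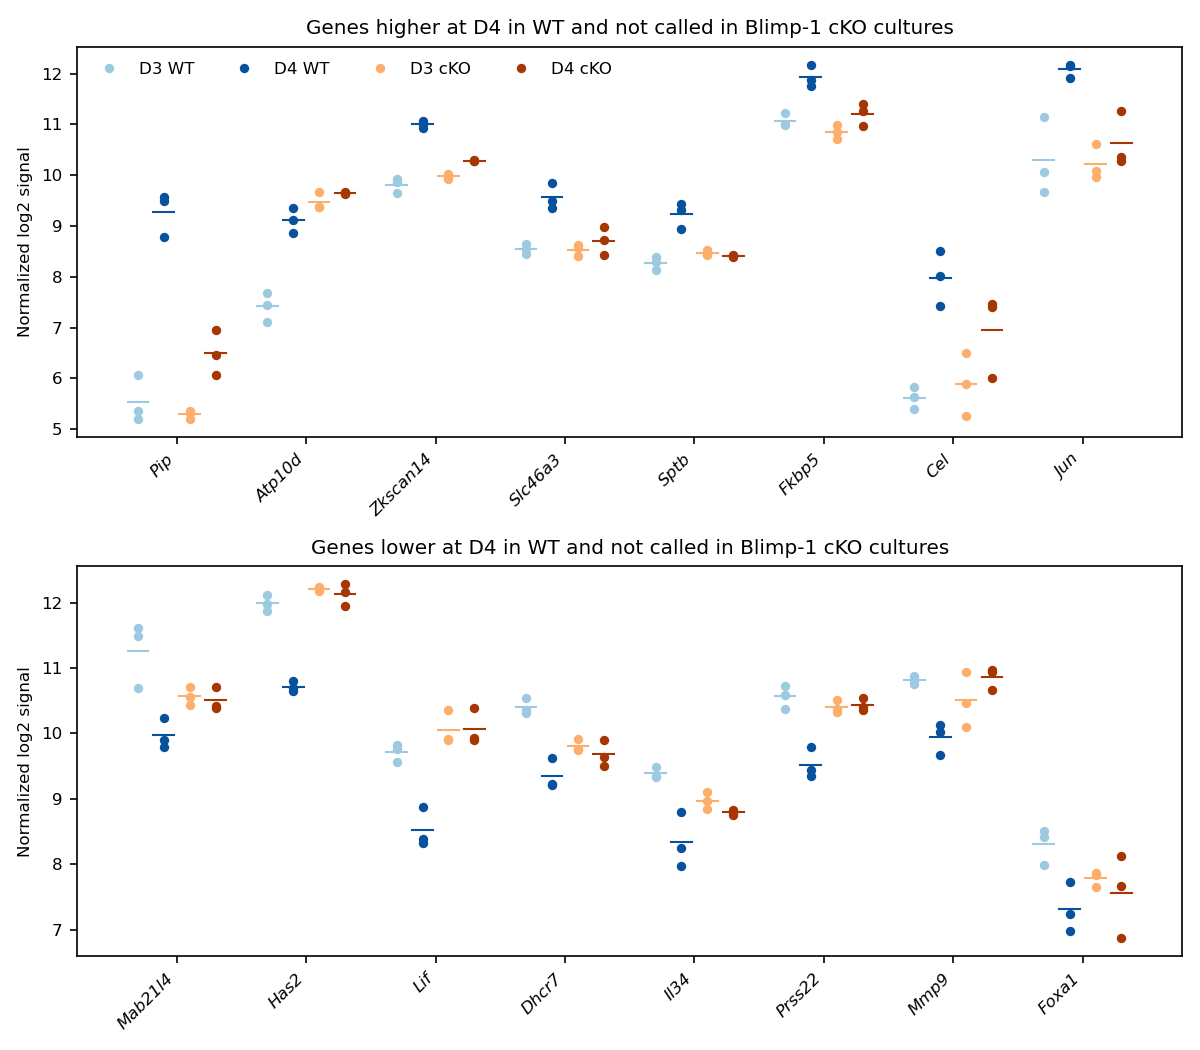
Normalized log2 signal on each array of 16 genes called in WT and not in the cKO (Pip was not tested in the cKO), chosen after their values were seen, with a bar at the mean of 3 arrays in each group. Has2 lies near 12 on both days of the cKO and at D3 of WT and below 11 at D4 of WT, and Atp10d lies near 9.5 on both cKO days.

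The lists of epithelial identity and structure held 1 called gene in the cKO, where 4.47% of all genes were called. Of 24 junction and polarity genes 0 were called in either genotype, with medians of 0.06 in cKO and -0.01 in WT. Of 19 basal markers 0 were called in the cKO and 1 rose and 1 fell in WT, and of 17 luminal markers Aldh1a3 alone was called in the cKO and 2 rose and 3 fell in WT. Ly6d, a surface marker of hormone receptor-negative luminal cells, gave 397, 211 and 200 at D3 and 650, 504 and 648 at D4 in the cKO with no overlap (log2 change 1.22 ± 0.34, adjusted p = 0.055), and rose 8.30-fold in WT (difference adjusted p = 0.40). Kit, the receptor of luminal progenitors, gave 0.04 ± 0.26 in the cKO and rose by 0.84 ± 0.26 in WT (difference adjusted p = 0.66).

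Of the 455 genes called in the cKO, 112 were not called in WT, 47 that rose and 65 that fell. H2-Q8 gave 503, 443 and 600 at D3 and 1115, 1282 and 1271 at D4 in the cKO, a 2.39-fold rise (adjusted p = 0.0077), and in WT 0.03 ± 0.19 (difference adjusted p = 0.35). A second H2-Q8 probe rose by 1.85 ± 0.15 in the cKO (adjusted p = 0.0012). In WT it gave 0.57 (adjusted p = 0.023), just short of a 1.5-fold change. Its difference between genotypes had an unadjusted limma p of 7.4e-05. After adjustment no probe passed this test, with a lowest adjusted p of 0.111. Plac8, a cysteine-rich protein, rose 2.34-fold (adjusted p = 0.0078) and gave 0.36 ± 0.19 in WT. Gsdmd, the pore-forming effector of pyroptosis, rose by 0.61 ± 0.14 and gave -0.11 ± 0.14 in WT, while a pair of further probes gave 0.34 and 0.30 in WT. Flt4, the receptor of lymphatic growth factors, was detected on 0 of 3 arrays at D3 (67, 70 and 57) and on 3 of 3 at D4 (99, 113 and 109), at least 1.42-fold higher (adjusted p = 0.012), while its WT signals went from 90, 119 and 95 to 74, 72 and 70. H2ac8, a replication-dependent histone gene, fell by 1.08 ± 0.14 on the log2 scale and gave -0.15 ± 0.14 in WT (difference adjusted p = 0.35). H4c12 fell by 1.00 ± 0.17 and gave -0.34 ± 0.17 in WT, where a second probe fell by 0.69 (adjusted p = 0.030). Histone genes are near-identical copies whose probes may share transcripts.

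Lyz2, the lysozyme of macrophages, gave 2302, 1721 and 1325 at D3 and 1021, 972 and 994 at D4 in the cKO (log2 change -0.80 ± 0.21, adjusted p = 0.044) and 0.05 ± 0.21 in WT. The call ended in 15 of 22 alternatives, the replicate block among them (adjusted p = 0.055), and a second probe gave -0.25 ± 0.15. Of 7 myeloid markers tested it alone was called, and their summed signal was 2189 to 4220 at D3 and 1957 to 2376 at D4 on the cKO arrays. Klra16, a receptor of natural killer cells, and Cth, which makes cysteine, were detected on the D3 cKO arrays and on no WT array. Klra16 gave 360, 506 and 699 at D3 and 268, 220 and 198 at D4, a 2.22-fold fall (adjusted p = 0.013), and Cth fell at least 1.37-fold (adjusted p = 0.0092).

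Prdm1 itself was detected on 1 of 3 cKO arrays at D3 (60, 90 and 73) and on 3 of 3 at D4 (115, 127 and 98). The arrays did not overlap, and the change of 0.62 ± 0.20 was not called (adjusted p = 0.093) but passed with the replicate number as a block (0.033). It was detected on no WT array. Whether its probe lies within the deleted exons was not stated, and the value is no check of the deletion. The filter itself left a margin: 729 probes were detected on exactly 3 of the 6 cKO arrays, with a median log2 signal of 6.22, and 1018 on exactly 2, which failed it, with 6.07.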

How the data were processed

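RNA of MEC acini was hybridised to Illumina Mouse WG-6 v2 arrays. The deposited intensity values are non-normalized probe signals that the authors exported from GenomeStudio, each with a detection p-value the authors' software computed against negative controls. The deposited processed intensity values, which the authors had background-subtracted and scaled by rank-invariant normalization, served as an alternative. The signals of all 12 arrays were corrected and quantile-normalized together with neqc in limma 3.58.1 (R 4.3.3; offset 16), and printed signals are linear values after this step, so the offset compresses folds of dim probes. A single limma model of the 4 groups gave the D4 minus D3 change in cKO and in WT and their difference, with Benjamini-Hochberg adjustment over 18638 probes for the cKO and over the 19972 probes detected on at least 3 of 12 arrays otherwise. Each gene was represented by its brightest tested probe. SE is the standard error from this model. The number of arrays, 3 a group, limits the precision, and an exact permutation test of 3 against 3 arrays cannot give a two-sided p under 0.1.

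Residuals of same-numbered D3 and D4 cKO arrays correlated at 0.31, 0.35 and 0.36, so these arrays deviated alike. In WT the values were 0.18, 0.13 and 0.08. What same-numbered arrays have in common is not stated, and the main model does not use the number. The fit with the replicate number as a block called 356 and 235 genes in the cKO. The fits were tested on simulated data. The members and gene lists were chosen with earlier results of these data known. Genes were named by rule: the 12 largest increases and decreases called in the cKO with no overlap, the 8 largest WT changes each way, up to 8 lowest p-values of the difference each way, 2 to 4 members of each list by size of cKO change, and Prdm1. Named outside this rule, after their values were seen, were the genes with small cKO or cKO-only changes, Col16a1, Dhx58, Fkbp5, the histone genes, H2-D1, H2-K1, Ifit3, Irgm2, Isg15, Jun, Kit, Krt8, Krt18, Mcm5, Mcm6, Oas1g, Pdk1, Psmb8, Rrm2, Rtp4, Stat2, Tap2, Uhrf1 and Usp18. Promoters are those of RefSeq. Dim probes give bounds only.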

Additional observations from a re-analysis of the deposited data

Results flagged for a closer look

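Only the named genes, chosen in part by the lowest p-values of the difference, were searched for opposite movement. In 5 of them the D4 arrays all lay beyond the D3 arrays in both genotypes, in opposite directions in cKO and WT. How many of all genes tested did so was not counted. The test of the difference did not pass for any of them in the limma model without a block, and passed with the replicate number as a random block for Flt4 (adjusted p = 0.040), Ifi27 (0.040) and Rspry1 (0.045). Ifi27 also passed with trended and robust variances (0.0024) and without background correction (0.015). Flt4, the lymphatic growth factor receptor, differed by 1.195 on the log2 scale (cKO minus WT, adjusted p = 0.11), with cKO signals of 57 to 70 at D3 and 99 to 113 at D4 and WT signals of 90 to 119 and 70 to 74, all close to background. Gria3, a glutamate receptor subunit, differed by 0.9431 (adjusted p = 0.39), also at dim signals of 53 to 111. The interferon-induced Ifi27 differed by -0.8848 (adjusted p = 0.11) and is bright, with cKO signals of 12170, 13210 and 12788 at D3 and 11944, 10874 and 11557 at D4, and WT signals of 8240, 8796 and 9583 at D3 and 15434, 13696 and 15104 at D4. A second Ifi27 probe gave -0.07 ± 0.10 in the cKO, where its D3 and D4 arrays overlapped, and rose by 0.77 in WT. Rps6, a protein of the small ribosomal subunit, differed by -0.3149 (adjusted p = 0.65). Rspry1 differed by -1.282 (adjusted p = 0.18) and did not pass the detection filter in the cKO, where it was detected on 2 of 3 D3 arrays and 0 of 3 D4 arrays.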

How the results depend on the processing

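The number of genes called in the cKO moved with the model, the values used, the filter and the arrays left out. No named gene called in the cKO changed sign, but medians of lists near 0 did (junctions from 0.06 to -0.01 without D4 cKO replicate 3, matrix proteases from -0.02 to 0.15 with the authors' processed values), and the uncalled Csn2 ranged from -0.41 to 1.57. Genes higher in the cKO, 273, became 72 with the cKO arrays modelled alone and 0 with an ordinary t-test after adjustment. The study's methods describe an Illumina error model for the arrays, which was not rerun here. Leaving out 1 array gave 97 (without D4 cKO replicate 2) to 297 (without D4 cKO replicate 1), and 118, 144 and 104 without D3 cKO replicate 1, D3 cKO replicate 3 and D4 cKO replicate 3. Genes lower in the cKO, 182, became 102 with the authors' processed values, 92 without background correction, 109 without a filter, 20 with the cKO arrays alone, 328 with no fold minimum and 0 with the adjusted t-test. They ranged from 57 (without D4 cKO replicate 3) to 242 (without D4 cKO replicate 1), with 63, 92 and 86 without D3 cKO replicates 1, 2 and 3 and 64 without D4 cKO replicate 2. In WT the counts of 760 and 524 became 482 and 263 without background correction, 1143 and 1019 with no fold minimum, and 346 and 172 with the adjusted t-test, and ranged from 594 to 755 and from 390 to 544 with 1 array left out. The difference between genotypes, 0 genes, gave 4 without background correction, 8 with the random block, 6 with trended and robust variances, 823 with the unadjusted t-test and 0 with the adjusted one, and 0 with any array left out. The replicate block gave 356 genes higher and 235 lower in the cKO, 823 and 574 in WT and 0 for the difference. Of 87 named genes called in the cKO, 16 kept their call in every limma alternative that tested them, 33 lost it in 1 to 4 and 38 in 5 or more. The alternatives that tested a gene numbered 18 to 22. An alternative in which its probe failed the filter was not counted as a loss. With the block 6 calls ended and 21 were added. The cause of these shifts was not tested. Dim probes, near the detection limit, have folds that are bounds or compressed.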
